A study of Mus musculus with 22 samples.

Results

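The genes described here make cholesterol and fatty acids, and 38 of them were chosen by name from the biosynthetic pathways, 7 of the mevalonate arm, 11 of the steps from squalene to cholesterol, 6 that control the pathway or carry sterols, 6 of fatty acid synthesis, 7 of fatty acid desaturation and elongation, and Bdh1, an enzyme of ketone bodies. The choice used gene names and not expression values, but it was made with earlier results of these data known. Of the 38 genes, 36 had an entry of their own among 23286 entries of the expression table, and 2 (Tm7sf2 and Scd2) shared an entry with another gene. Thrsp, a regulator of fatty acid synthesis in liver and fat, lay between 0 and 0.124 FPKM, so that 35 genes were above 1 FPKM in at least 1 condition and entered the counts. FPKM is the number of fragments scaled to transcript length and to the fragments mapped in a library.

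The cells were mouse embryonic palatal mesenchyme cells (MEPMs), primary cells taken from the palatal shelves of wild-type C57B/6 embryos at E13.5 and used at passage 2 after a night in 0.1% FBS. They received 30 ng/mL PDGFA or 50 ng/mL FGF1 with 1 ug/mL heparin. Some were first given 1 uM PD325901 (PD), which blocks MEK and thereby ERK signaling, or 10 uM LY294002 (LY), which blocks PI3K and is known to act on related kinases as well. Each ligand alone was measured at 4 hr in 3 samples, and each ligand with each inhibitor at 1 and at 4 hr in 2 samples, which gave 10 conditions and 22 samples, with sets of replicates from independent litters. Untreated cells and 1 hr of ligand alone were not analysed here, so at 1 hr LY could be set only beside PD. The times count from the ligand, so cells with an inhibitor had been with it for longer than the time named.

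The deposited table holds 1 value for each gene and condition, pooled over the replicates by the authors. No spread between replicates and no test could therefore be calculated, and every comparison below sets 2 pooled values side by side. A gene was counted as lower or higher when its ratio reached 1.5-fold, among entries above 1 FPKM in either condition, and the first count of each comparison is given beside the percent of all entries that reached the same size. Ratios are given as log2 of the first condition over the second, with no offset added.

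Cholesterol is built from acetyl-CoA through mevalonate, farnesyl diphosphate, squalene and lanosterol. The enzymes of this route, and many of fatty acid synthesis, are transcribed under the SREBP factors, which are made as membrane proteins of the endoplasmic reticulum. INSIG proteins hold SREBP there with its escort SCAP while sterols are plentiful, and when sterols run low SCAP takes SREBP to the Golgi to be cut and released to the nucleus. PI3K signaling through AKT and mTORC1 is known to promote SREBP activity in many cells. In the face the pathway is known from inherited deficiency of DHCR7, which can include cleft palate, and from mice lacking both Insig genes, which have midline clefts.

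Promoter sequences from RefSeq (GRCm38.p6) were matched to 31 of the 38 genes by symbol, and the 250 bases before each start were searched on both strands for 4 sets of letters. These were TCACNCCAC, a form of the sterol regulatory element bound by SREBP, CCAAT, bound by NF-Y, GGGCGG, bound by Sp1, and CACGTG, an E-box. The first 3 are shown because SREBP is known to act together with NF-Y and Sp1 at such promoters. The windows printed are the 180 bases before the start, first listed window of a gene, in all 7 genes where no base lay in an exon annotated by GENCODE or within the RefSeq range of the gene itself. Of these genes 6 (Hmgcs1, Pmvk, Mvd, Ebp, Sc5d and Acly) were lower with LY in every comparison with PD, and Scap was not. This rule was set after the values and matches were seen, and capitals mark the matches on either strand.
Hmgcs1, chr13:119690171-119690350, + strand: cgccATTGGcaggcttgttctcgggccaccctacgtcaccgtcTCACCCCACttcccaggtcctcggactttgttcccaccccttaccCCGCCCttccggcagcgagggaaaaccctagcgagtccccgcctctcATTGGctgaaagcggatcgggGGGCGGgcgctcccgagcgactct
Pmvk, chr3:89454361-89454540, + strand: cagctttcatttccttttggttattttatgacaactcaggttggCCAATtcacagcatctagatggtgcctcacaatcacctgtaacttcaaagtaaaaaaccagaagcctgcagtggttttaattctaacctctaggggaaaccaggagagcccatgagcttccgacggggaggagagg
Mvd, chr8:122443423-122443602, - strand: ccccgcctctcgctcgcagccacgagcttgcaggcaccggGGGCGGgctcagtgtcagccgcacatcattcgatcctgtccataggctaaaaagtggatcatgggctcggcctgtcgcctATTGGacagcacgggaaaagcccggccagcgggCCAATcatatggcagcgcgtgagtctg
Ebp, chrX:8193513-8193692, - strand: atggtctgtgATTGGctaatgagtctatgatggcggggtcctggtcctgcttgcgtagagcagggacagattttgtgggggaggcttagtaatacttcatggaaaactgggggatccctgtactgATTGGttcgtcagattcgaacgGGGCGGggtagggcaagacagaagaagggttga
Sc5d, chr9:42264301-42264480, - strand: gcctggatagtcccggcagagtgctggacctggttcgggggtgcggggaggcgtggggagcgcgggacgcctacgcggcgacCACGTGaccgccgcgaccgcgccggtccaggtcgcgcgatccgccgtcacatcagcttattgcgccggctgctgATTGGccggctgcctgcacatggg
Scap, chr9:110333108-110333287, + strand: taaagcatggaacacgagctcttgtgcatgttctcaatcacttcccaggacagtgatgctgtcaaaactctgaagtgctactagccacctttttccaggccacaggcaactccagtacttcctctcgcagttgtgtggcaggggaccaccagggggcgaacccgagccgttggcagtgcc
Acly, chr11:100528001-100528180, - strand: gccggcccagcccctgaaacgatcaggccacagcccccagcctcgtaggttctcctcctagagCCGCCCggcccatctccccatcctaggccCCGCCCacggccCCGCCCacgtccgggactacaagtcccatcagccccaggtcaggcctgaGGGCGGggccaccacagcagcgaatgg

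Hmgcs1 was the only one of the 31 genes with TCACNCCAC, at positions -137 to -129 counted back from -1, the last base before the start, and the letters were in the promoters of 1.22% of 27025 genes. CCAAT was present in 24 of the 31 genes, or 77.4%, and in 37.5% of all genes, and the printed windows of Hmgcs1, Mvd and Ebp each held it 2 times. GGGCGG was likewise in 24 of the 31 genes and in 35.4% of all, and the window of Acly held it 4 times. CACGTG was in 6 genes, or 19.4%, against 6.86% of all genes. Of 21 genes that were lower in every comparison of LY with PD, 16 held CCAAT and 16 GGGCGG, and of 8 further genes with a ratio in each, some of them lower in part of the comparisons, 6 held CCAAT and 7 GGGCGG. No match overlaps another in the printed windows. For Hmgcs1 and Sc5d, the 30 bases after the start were not found near the beginning of any GENCODE transcript of the gene. Which start the cells use is not known. The printed window of Scap holds none of the letters, which says only that they are not in this window. Another listed window of Scap held GGGCGG and CACGTG, and Scap is counted among the genes with these letters.

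At 4 hr, sterol synthesis genes were lower with LY than with either ligand alone or with PD, and they were near the level of ligand alone with PD. The summed level of the 17 sterol enzymes with an own entry was 1545 FPKM with PDGF alone and 1581 FPKM with FGF alone. It was 1365 FPKM with PDGF and PD and 1606 FPKM with FGF and PD. With LY it was 424 FPKM in PDGF-treated and 480.1 FPKM in FGF-treated cells. The 4 hr LY conditions thus held the lowest sums of all 10. In a culture, fewer cells of a type and less RNA per cell cannot be told apart.

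**Figure D1:**
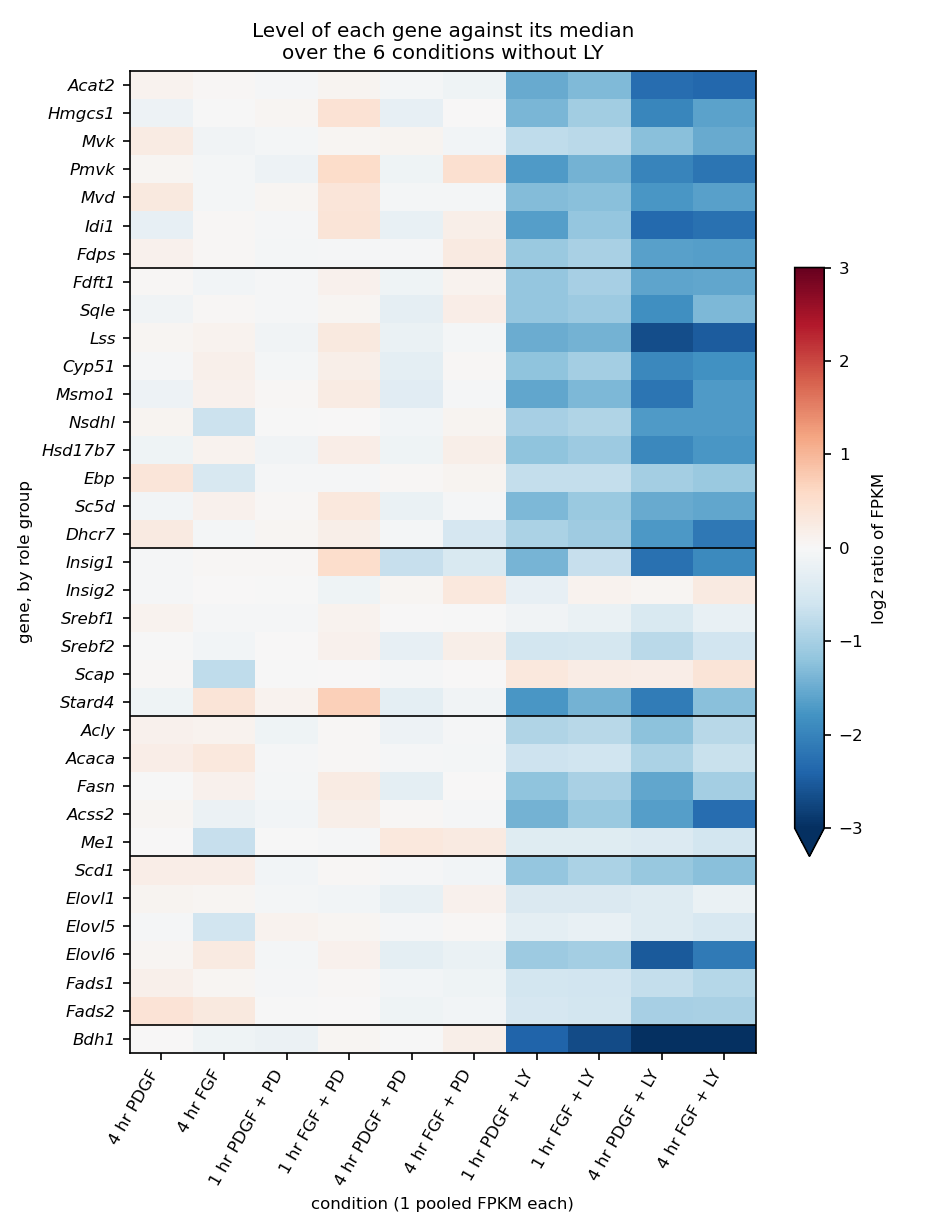
Heat map of 35 genes (rows, grouped by role) in 10 conditions (columns), each cell the log2 ratio of the pooled FPKM to that gene's median over the 6 conditions without LY, with blue for lower and red for higher. The 4 columns with LY are blue for most rows, and the rows of Insig2, Scap, Srebf1, Elovl1, Elovl5 and Me1 stay pale.

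With PDGF, LY was set against the ligand alone at 4 hr. Of 35 genes, 29 were lower and 0 higher, with a median log2 ratio of -1.72, while among all 11738 entries 14.5% were lower and 9.84% higher. With FGF 28 genes were lower and 1 (Scap) higher, with a median of -1.47, while 12.7% of all entries were lower and 11.4% higher. PD gave another picture against the same ligand-alone conditions. With PDGF 1 gene (Insig1) was lower with PD and 0 were higher, with a median of -0.17, beside 9.57% of all entries lower and 11.9% higher. With FGF 0 genes were lower and 4 higher with PD, with a median of 0.03, beside 11.6% and 11.5% of all entries. There 16 of the 35 genes were below 0. Comparisons that share a ligand-alone condition are not independent of each other.

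**Figure D2:**
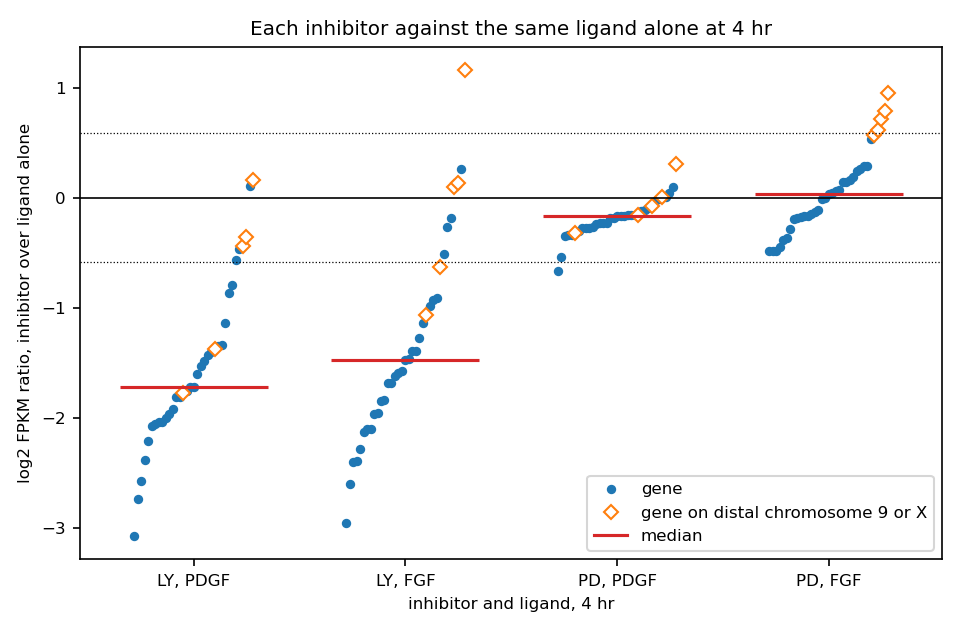
Log2 FPKM ratio (vertical axis) of each inhibitor over the same ligand alone at 4 hr for 35 genes in 4 comparisons (horizontal axis), with the median as a red line, the 1.5-fold limits dotted, and genes of distal chromosome 9 and chromosome X as open diamonds. The medians are -1.72 and -1.47 with LY and -0.17 and 0.03 with PD, and the genes above the upper limit are diamonds.

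The direct comparison of LY with PD leaves the ligand-alone libraries out. With PDGF at 4 hr 29 of 35 genes were lower with LY and 0 higher, with a median of -1.54, beside 12.8% of all entries lower and 6.97% higher. With FGF at 4 hr 30 genes were lower and 0 higher, with a median of -1.52, beside 12.6% and 11.6%. At 1 hr the counts were already close to those at 4 hr. With PDGF 26 genes were lower and 0 higher, with a median of -1.07, beside 8.86% and 6.21% of all entries. With FGF 28 genes were lower and 0 higher, with a median of -1.14, beside 12% and 7.78%. At 1 hr a lower level with LY and a higher level with PD cannot be told apart.

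In 29 of the 35 genes all 4 LY conditions lay below all 6 other conditions, which was so for 6.4% of 12298 entries. The exceptions were Insig1, Insig2, Scap, Me1, Elovl1 and Elovl5, and of these Insig1 overlapped only because its level with FGF and LY at 1 hr (68.0 FPKM) was just above that with PDGF and PD at 4 hr (67.4 FPKM). The genes lower with LY in all 4 comparisons with PD numbered 26, beside 2.83% of all entries.

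The mevalonate arm turns acetyl-CoA into farnesyl diphosphate, and its 7 genes were all lower with LY in each of the 6 comparisons of LY with PD or ligand alone, beside 1.85% of all entries. Their summed level was 613 and 593 FPKM with PDGF and FGF alone and 167 and 181 FPKM with LY at 4 hr. Pmvk, Idi1 and Acat2 had the lowest mean ratios of LY to PD at 4 hr in this group.

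Acat2 (chr17:12943042-12960725), the thiolase that joins a pair of acetyl-CoA molecules, was at 73.6 FPKM with PDGF and 70.6 FPKM with FGF alone at 4 hr. With PD it was at 65.9 and 62.2 FPKM at 4 hr and at 66.4 and 72.5 FPKM at 1 hr, PDGF first. Acat2 with LY was at 24.2 and 27.3 FPKM at 1 hr and at 14.2 and 13.4 FPKM at 4 hr. Every LY value of Acat2 lay under every other value, and at 4 hr its level with PDGF alone was 5.20-fold that with LY. Of the 31-base words of its transcripts, 45.2% also occur in other genes, most in Acat3, so that its level depends on how reads were assigned.

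Pmvk (chr3:89454541-89469014), the kinase that adds the second phosphate to mevalonate, was at 60.7 and 55.5 FPKM with PDGF and FGF alone. With PD it was at 53.4 and 80.5 FPKM at 4 hr and at 52.1 and 85.5 FPKM at 1 hr. Pmvk with LY was at 18.0 and 21.8 FPKM at 1 hr and at 14.6 and 12.7 FPKM at 4 hr. The LY values were again the lowest, and the highest values were those with FGF and PD. Its log2 ratio of LY to PD at 4 hr was -1.87 with PDGF and -2.66 with FGF.

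Idi1 (chr13:8885606-8892396), the isomerase of the isoprene units, was a gene of low level, at 8.70 and 10.6 FPKM with PDGF and FGF alone. It was at 8.96 and 11.7 FPKM with PD at 4 hr and at 10.1 and 13.6 FPKM with PD at 1 hr. Idi1 with LY was at 3.33 and 4.62 FPKM at 1 hr and at 2.06 and 2.19 FPKM at 4 hr. The groups did not overlap, and the log2 ratios of LY to PD at 4 hr were -2.12 and -2.42. Other genes share 21.2% of the 31-base words of Idi1.

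Hmgcs1, which makes HMG-CoA and held the letters TCACNCCAC in the window printed above, was the most abundant gene of this arm. It ranged from 66.9 FPKM with PDGF and LY at 4 hr to 351 FPKM with FGF and PD at 1 hr. Its log2 ratios of LY to PD were -1.43 and -1.48 at 1 hr and -1.72 and -1.60 at 4 hr. Mvk, the kinase that acts before Pmvk, had the smallest ratios of the arm at 1 hr, -0.71 and -0.87. Mvd, the decarboxylase, stood at -1.69 and -1.57 at 4 hr. Fdps, which makes farnesyl diphosphate, stood at -1.59 and -1.93 at 4 hr. The value of Fdps is uncertain, since 67.5% of its 31-base words also occur in other genes, most in Gm43738.

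From squalene to cholesterol, all 10 genes with an own entry were lower with LY in the same 6 comparisons, again beside 1.85% of all entries. Their summed level was 932 and 988 FPKM with PDGF and FGF alone, 816 and 981 FPKM with PD at 4 hr, and 257 and 299 FPKM with LY at 4 hr. Lss, Hsd17b7 and Msmo1 had the lowest mean ratios of LY to PD at 4 hr.

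Lss (chr10:76531565-76557139), lanosterol synthase, which closes the sterol rings, was at 78.9 and 81.3 FPKM with PDGF and FGF alone. With PD it was at 65.3 and 72.0 FPKM at 4 hr and at 69.5 and 91.6 FPKM at 1 hr. Lss with LY was at 26.7 and 28.3 FPKM at 1 hr and at 11.9 and 13.4 FPKM at 4 hr. Lss had the widest range among the sterol enzymes, and its ratio to ligand alone was the 16th lowest of 9038 entries with PDGF and the 21st lowest of 8943 with FGF. The 4 hr levels with ligand alone were 6.65-fold and 6.07-fold those with LY.

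Hsd17b7 (chr1:169949535-169969242), a sterol ketoreductase, was at 57.3 and 67.4 FPKM with PDGF and FGF alone. It was at 57.4 and 70.6 FPKM with PD at 4 hr and at 57.9 and 71.5 FPKM with PD at 1 hr. Hsd17b7 with LY was at 27.1 and 29.5 FPKM at 1 hr and at 16.4 and 18.7 FPKM at 4 hr. Its values without LY hardly moved with time or PD, and those with LY were all below them.

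Msmo1 (chr8:64718123-64733578), the sterol methyl oxidase, was at 214 and 263 FPKM with PDGF and FGF alone. It was at 189 and 234 FPKM with PD at 4 hr and at 244 and 282 FPKM with PD at 1 hr. Msmo1 with LY was at 81.0 and 94.2 FPKM at 1 hr and at 52.2 and 73.6 FPKM at 4 hr. Its log2 ratios of LY to PD were nearly as low at 1 hr (-1.59 and -1.58) as at 4 hr (-1.85 and -1.67).

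The other genes of this stretch had log2 ratios of LY to PD at 4 hr between -1.06 and -1.83. Fdft1, which makes squalene, stood at -1.44 with PDGF and -1.66 with FGF, with 16.5% of its words in other genes and 20.9% of its exon bases opposite exons of Ctsb. Sqle, the epoxidase that makes squalene ready for Lss, stood at -1.56 and -1.55. Cyp51, which removes a methyl group of lanosterol, stood at -1.64 and -1.83. Among the late enzymes Dhcr7, the reductase of the last step, stood at -1.66 with both ligands. Ebp, the sterol isomerase, was the least changed at -1.06 and -1.20. Nsdhl, a sterol dehydrogenase, stood at -1.62 and -1.78, and Sc5d, a desaturase, at -1.31 and -1.52. The shared entry of Tm7sf2, a sterol reductase, and Vps51 was at 69.7 and 56.4 FPKM with PDGF and FGF alone and at 32.4 and 29.4 FPKM with LY, and how much of it came from either gene is not known.

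**Figure D3:**
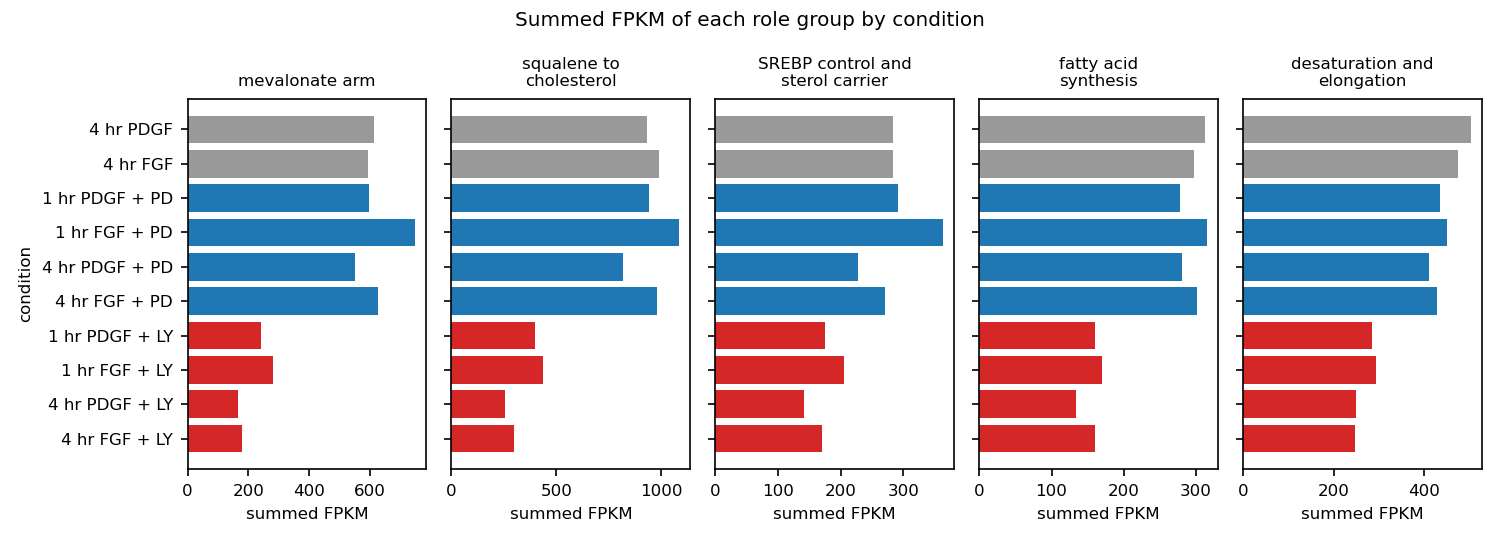
Summed FPKM (horizontal axes, each from 0) of 5 role groups in 10 conditions (vertical axis), gray for ligand alone, blue for PD and red for LY. In the mevalonate arm the sums with LY lie between 167 and 279.6 FPKM and the others between 549.7 and 748 FPKM, and the gap between red and the other bars is narrower in the 3 panels on the right.

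The control genes did not move together. Insig1, the retention factor that is itself an SREBP target, and Stard4, a carrier of cholesterol between membranes, were lower with LY in all 6 comparisons. Srebf2 was lower in 3 of the 6, Srebf1 and Insig2 in none, and Scap was above its PD level in all 4 comparisons, by less than 1.5-fold.

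Insig1 (chr5:28071412-28078662) was at 107 and 112 FPKM with PDGF and FGF alone. With PD it was at 112 and 159 FPKM at 1 hr and at 67.4 and 80.3 FPKM at 4 hr. Insig1 with LY was at 41.4 and 68.0 FPKM at 1 hr and at 23.2 and 28.9 FPKM at 4 hr. Insig1 was thus also below the ligand-alone level with PD at 4 hr, with log2 ratios of -0.67 with PDGF and -0.48 with FGF.

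Stard4 was at 25.6 and 36.3 FPKM with PDGF and FGF alone. It was at 30.2 and 46.3 FPKM with PD at 1 hr and at 22.8 and 26.0 FPKM with PD at 4 hr. Stard4 with LY was at 8.42 and 10.5 FPKM at 1 hr and at 6.57 and 11.8 FPKM at 4 hr. With FGF its log2 ratio of LY to PD went from -2.14 at 1 hr to -1.14 at 4 hr, and with PDGF it stayed at -1.84 and -1.80.

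Srebf2, the SREBP gene known chiefly for sterol synthesis, was at 79.2 and 76.1 FPKM with PDGF and FGF alone and at 67.3 and 91.0 FPKM with PD at 4 hr. Srebf2 with LY at 4 hr was at 45.6 and 53.4 FPKM. At 1 hr it was at 80.6 and 87.5 FPKM with PD and at 54.9 and 55.8 FPKM with LY. The LY values were the 4 lowest, though by less than in the enzymes, with log2 ratios to PD from -0.55 to -0.77.

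Srebf1 (chr11:60199084-60224186), whose products include the SREBP form known for fatty acid synthesis, was at 32.8 and 29.6 FPKM with PDGF and FGF alone. It was at 30.4 and 30.3 FPKM with PD at 4 hr and at 29.8 and 32.6 FPKM with PD at 1 hr. Srebf1 with LY was at 28.3 and 26.3 FPKM at 1 hr and at 22.1 and 26.0 FPKM at 4 hr. The table does not separate its transcripts, and its log2 ratios of LY to PD lay between -0.07 and -0.46.

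Insig2, the second retention factor, lay between 13.8 and 20.3 FPKM over all 10 conditions, with no order by inhibitor. Scap, the escort, was at 22.5 to 23.4 FPKM with PD and at 26.5 to 30.2 FPKM with LY. With FGF alone Scap was at 13.6 FPKM, the lowest of its values, which is taken up with the ligand comparison.

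In fatty acid synthesis 4 of 5 genes were lower with LY than with either ligand alone at 4 hr, and Me1 was not. Among all entries 14.5% were lower with PDGF and 12.7% with FGF. Against PD at 4 hr all 5 genes were lower with both ligands, beside 12.8% and 12.6% of all entries. Me1 had log2 ratios of LY to PD of -0.74 and -0.81. Against FGF alone Me1 stood at 0.14, in a chromosome region that was shifted in that condition, and at -0.47 once the median of the region is taken off. Their summed level, Thrsp included, was 313 and 297 FPKM with PDGF and FGF alone, 281 and 301 FPKM with PD at 4 hr, and 134 and 161 FPKM with LY at 4 hr. The median log2 ratio of LY to PD at 4 hr was -1.07 with PDGF and -0.81 with FGF, closer to 0 than the -1.72 and -1.93 of the mevalonate arm.

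Acss2 (chr2:155518043-155562743), which makes acetyl-CoA from acetate, was at 22.4 and 18.8 FPKM with PDGF and FGF alone. It was at 21.9 and 20.7 FPKM with PD at 4 hr and at 20.2 and 24.0 FPKM with PD at 1 hr. Acss2 with LY was at 7.92 and 9.82 FPKM at 1 hr and at 6.78 and 4.40 FPKM at 4 hr. The groups were apart, and the lowest value was that with FGF and LY at 4 hr.

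Fasn (chr11:120805958-120825166), fatty acid synthase, was at 62.7 and 69.7 FPKM with PDGF and FGF alone. It was at 52.0 and 64.7 FPKM with PD at 4 hr and at 61.6 and 75.6 FPKM with PD at 1 hr. Fasn with LY was at 27.5 and 32.3 FPKM at 1 hr and at 21.8 and 31.6 FPKM at 4 hr. The difference between LY and PD was in place at 1 hr, with log2 ratios of -1.16 and -1.23, and did not widen with FGF.

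Acly, which splits citrate into acetyl-CoA, was at 178 and 176 FPKM with PDGF and FGF alone and at 147 and 159 FPKM with PD at 4 hr. It was at 149 and 168 FPKM with PD and at 87.9 and 91.3 FPKM with LY at 1 hr. Acly with LY at 4 hr was at 70.0 and 92.0 FPKM. All LY values were below all others here too. Acaca, which makes malonyl-CoA, lay between 2.56 and 6.10 FPKM, and 53.2% of its 31-base words occur in other genes. Me1, malic enzyme, a source of NADPH, was at 32.5 and 29.7 FPKM with LY and at 54.3 and 52.2 FPKM with PD at 4 hr.

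Desaturation and elongation genes differed in range between the highest and the lowest condition, from 1.48-fold in Elovl1 to 6.91-fold in Elovl6. Of 6 genes, 4 (Scd1, Elovl6, Fads1 and Fads2) were lower with LY than with ligand alone or PD at 4 hr, and Elovl1 and Elovl5 were not. In the single comparisons 12.6% to 14.5% of all entries were lower. The shared entry of Scd2, a stearoyl-CoA desaturase, and Mir5114 was the most abundant of all, at 580.4 and 574 FPKM with PDGF and FGF alone and at 189.6 and 149 FPKM with LY at 4 hr.

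Elovl6 (chr3:129532386-129638495), which elongates palmitate to stearate, was at 30.9 and 35.8 FPKM with PDGF and FGF alone. It was at 24.2 and 25.6 FPKM with PD at 4 hr and at 28.2 and 32.4 FPKM with PD at 1 hr. Elovl6 with LY was at 13.9 and 14.7 FPKM at 1 hr and at 5.18 and 6.80 FPKM at 4 hr. The values with LY at 4 hr were the lowest, and those with LY at 1 hr came next.

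Scd1 (chr19:44394450-44407709), which makes oleate from stearate, was at 119 and 120.0 FPKM with PDGF and FGF alone. It was at 101 and 98.8 FPKM with PD at 4 hr and at 97.6 and 107 FPKM with PD at 1 hr. Scd1 with LY was at 46.6 and 53.8 FPKM at 1 hr and at 46.9 and 43.4 FPKM at 4 hr. Unlike Elovl6, Scd1 had nearly the same values with LY at both times.

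Fads2, the desaturase at the entry to polyunsaturated fatty acids, was at 125 and 116 FPKM with PDGF and FGF alone. It was at 85.8 and 89.8 FPKM with PD at 4 hr and at 94.2 and 94.5 FPKM with PD at 1 hr. Fads2 with LY was at 66.1 and 64.0 FPKM at 1 hr and at 47.1 and 47.9 FPKM at 4 hr. With PDGF, Fads2 had the lowest ratio of PD to ligand alone in its group, at -0.54. Fads1, the partner desaturase, had log2 ratios of LY to PD from -0.52 to -0.72. Elovl1 and Elovl5, elongases of saturated and polyunsaturated chains, had ratios between -0.17 and -0.51.

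Bdh1 (chr16:31422297-31458901), the mitochondrial enzyme that interconverts the ketone bodies, had the lowest ratios of all. It was at 5.37 and 4.92 FPKM with PDGF and FGF alone, and with PD at 5.31 and 5.99 FPKM at 4 hr and at 4.76 and 5.56 FPKM at 1 hr. Bdh1 with LY was at 1.01 and 0.831 FPKM at 1 hr and at 0.639 and 0.635 FPKM at 4 hr. With FGF at 4 hr its level with PD was 9.44-fold that with LY, at low FPKM in both.

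The difference between LY and PD was wider at 4 hr than at 1 hr in most genes. The mean over both ligands of the log2 ratio of LY to PD had a median of -1.12 over the 35 genes at 1 hr and of -1.51 at 4 hr, and it was lower at 4 hr in 31 genes, beside 51.7% of all entries. Genes lower by 2-fold or more with LY for both ligands numbered 18 at 1 hr, beside 1.97% of all entries, and 24 at 4 hr, beside 3.07%. The genes differed in how much of the change was present at 1 hr. The mean log2 ratio went from -1.08 to -2.07 in Elovl6, from -1.54 to -2.44 in Lss and from -1.43 to -2.22 in Acat2. It hardly moved in Sc5d (-1.41 and -1.41), Fasn (-1.19 and -1.15) and Msmo1 (-1.59 and -1.76).

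**Figure D4:**
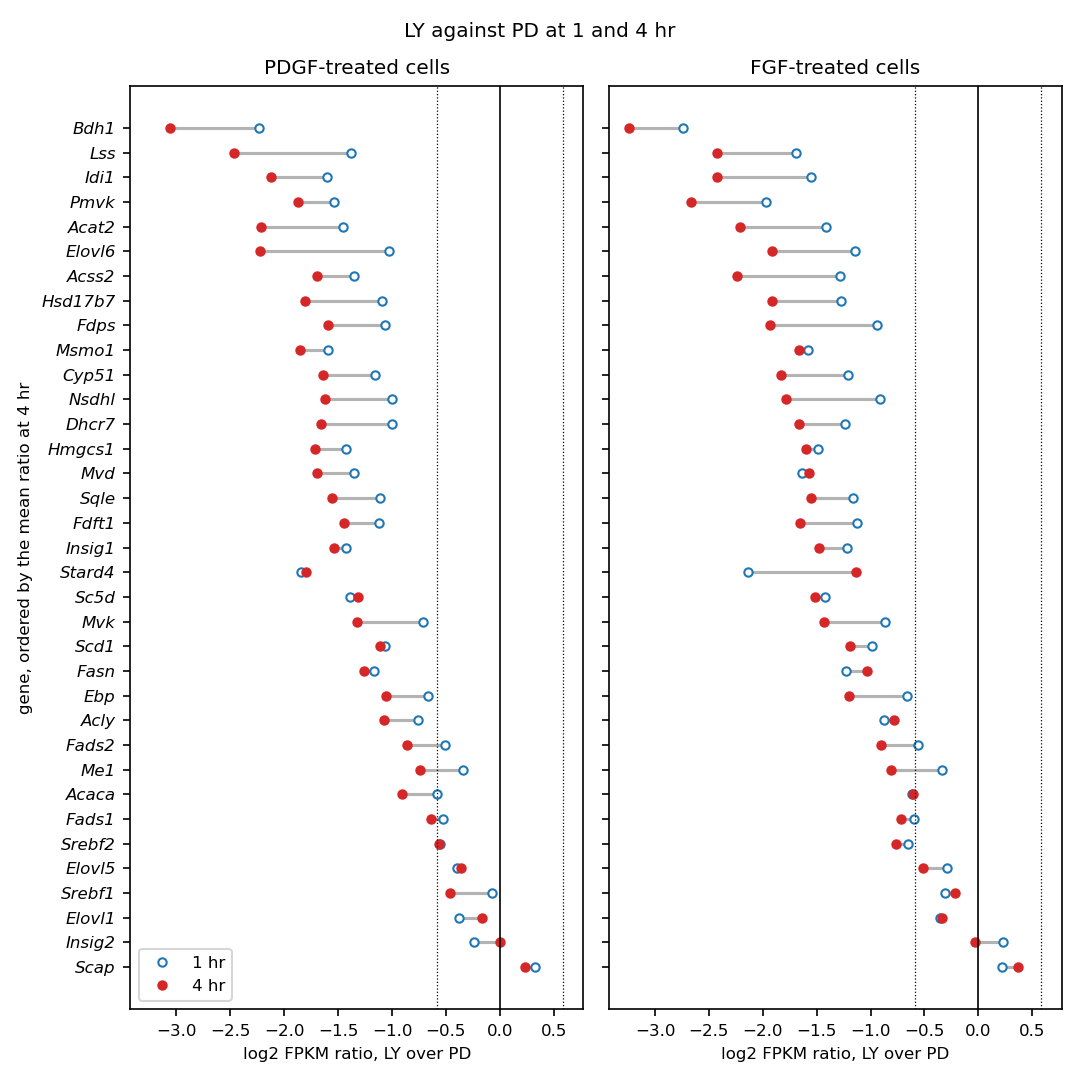
Log2 FPKM ratio of LY to PD (horizontal axis) for 35 genes (vertical axis) at 1 hr (open points) and 4 hr (filled points), with PDGF on the left and FGF on the right and the 1.5-fold limits dotted. Most filled points lie left of the open ones, Stard4 with FGF runs the other way (-2.14 and -1.14), and Scap and Insig2 lie near or above 0.

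Within the LY conditions, 4 hr was then compared with 1 hr for each ligand. With PDGF and LY 12 of 35 genes were lower at 4 hr and 0 higher, with a median log2 ratio of -0.42, beside 5.51% of all entries lower and 4.91% higher. With FGF and LY 13 of 34 genes were lower and 0 higher, with a median of -0.41, beside 12.2% and 11.4%. The genes with PD were steadier between the times. With PDGF and PD 1 gene (Insig1) was lower at 4 hr and 0 higher, with a median of -0.09, beside 3.63% and 8.27%. With FGF and PD 3 genes (Dhcr7, Insig1 and Stard4) were lower and 0 higher, with a median of -0.11, beside 9.92% and 4.44%. Insig1 was lower at 4 hr than at 1 hr in all 4 of these comparisons, by log2 ratios from -0.73 to -1.24.

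FGF was compared with PDGF in 5 settings, and in each most of the genes stayed within 1.5-fold between the ligands, as did most entries. With PD at 4 hr 0 genes were lower and 1 (Pmvk) higher with FGF, with a median log2 ratio of 0.15, beside 13.2% of all entries lower and 6.2% higher. With LY at 4 hr 1 of 34 genes (Acss2) was lower and 1 (Stard4) higher, with a median of 0.13, beside 9.51% and 8.95%. The same held at 1 hr. With PD at 1 hr 0 genes were lower and 2 (Pmvk and Stard4) higher, with a median of 0.13, beside 1.65% and 3.76%. With LY at 1 hr 0 genes were lower and 1 (Insig1) higher, with a median of 0.09, beside 2.76% and 4.14%.

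The signs of the ratios differed between the inhibitor conditions and the ligands alone. The ratio was above 0 in 25 of 35 genes with PD at 4 hr, beside 49.6% of all entries, and in 21 of 34 with LY at 4 hr, beside 49.2%. At 1 hr it was above 0 in 30 of 35 with PD, beside 49.9%, and in 27 of 35 with LY, beside 49%. With the ligands alone it was above 0 in 15 of 35, beside 46.4%, and in 15 of 30 without the 5 genes of the shifted regions described next. Without values for single replicates these counts could not be set against replicate error.

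With the ligands alone at 4 hr, 4 genes (Nsdhl, Ebp, Scap and Me1) were lower with FGF and 0 higher, with a median of -0.06, beside 6.58% of all entries lower and 4.37% higher. All 4 lie on chromosome X or in the distal part of chromosome 9. In those regions the whole table was shifted in the FGF-alone condition. The median log2 ratio of FGF to PDGF was -0.51 over 227 entries of chromosome X, of which 97.8% were below 0. On chromosome 9 it was -0.54 over 270 entries from Cryab (start at 50745951) on, of which 97.0% were below 0, and 0.07 over 146 entries up to Dlat (start at 50634633). On the other chromosomes together it was 0.02. The shift appeared in each comparison that used the 4 hr FGF-alone condition, and in the comparisons without it the medians of these regions lay between -0.17 and 0.07.

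**Figure D5:**
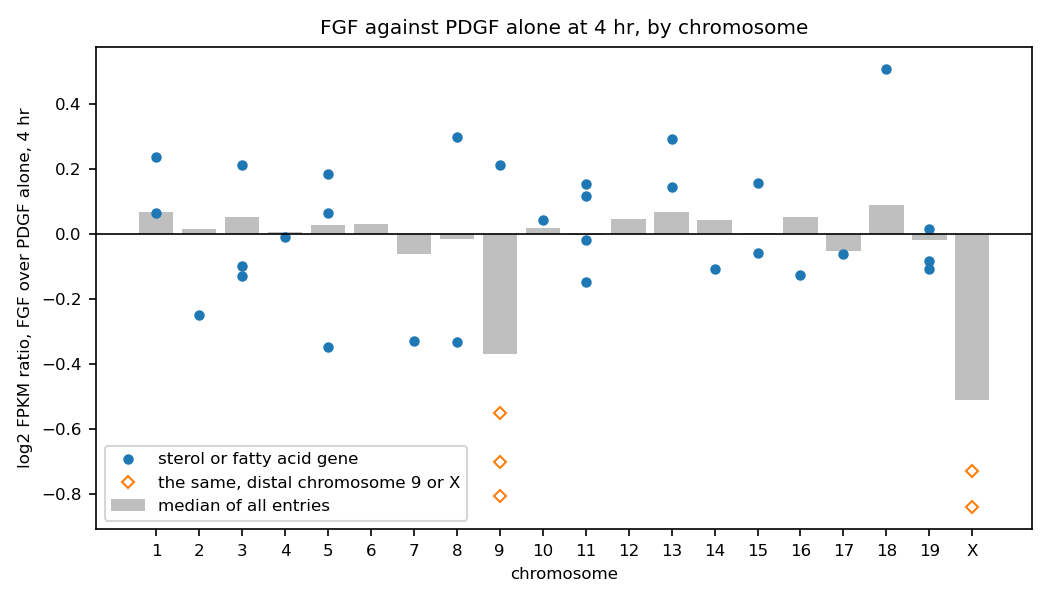
Log2 FPKM ratio of FGF to PDGF alone at 4 hr (vertical axis) by chromosome (horizontal axis), with the median of all entries at or above 5 FPKM as gray bars and the sterol and fatty acid genes as points, open diamonds for distal chromosome 9 and chromosome X. The bar of chromosome X stands at -0.51, and the 5 diamonds are the lowest of the 35 points.

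The values of these genes are therefore given beside their region. Nsdhl was at 44.1 FPKM with FGF alone and at 73.0 FPKM with PDGF alone, a log2 ratio of -0.73, or -0.22 once the median of its region is taken off. Ebp was at 15.5 and 27.7 FPKM, a ratio of -0.84, or -0.33 on the same terms. Scap was at 13.6 and 23.7 FPKM, a ratio of -0.81, or -0.26. Me1 was at 27.1 and 44.0 FPKM, a ratio of -0.70, or -0.16. Elovl5, at 38.5 and 56.4 FPKM, just missed 1.5-fold with a ratio of -0.55, or -0.01. A difference of these genes between the ligands and the shift of their regions cannot be told apart.

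The same shift touches the inhibitor comparisons with FGF alone. The 4 genes higher with PD than with FGF alone were Nsdhl (0.72), Scap (0.79), Me1 (0.95) and Elovl5 (0.61), in regions whose median log2 ratios were 0.59 on chromosome X and 0.55 on distal chromosome 9. Scap, the gene higher with LY than with FGF alone, had a ratio of 1.16 in a region with a median of 0.61. Without the 5 genes of these regions, 0 genes were higher with PD or with LY than with FGF alone and 0 were lower with FGF than with PDGF alone, and the median of LY against FGF alone was -1.61. Sc5d lies on chromosome 9 before the step and had a ratio of -1.69 against FGF alone with LY.

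The levels of several genes are uncertain where reads could be split with other genes. Beside those given above, 32.1% of the 31-base words of Me1 and 8.16% of those of Scd1 occur in other genes, and exons on the opposite strand overlap 18.6% of the exon bases of Scap, 16.0% of Hmgcs1, 14.6% of Bdh1 and 10.7% of Idi1.

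Values of the whole table bear on these results. The ligand-alone conditions had 6221 and 6391 entries at 0, and the 8 inhibitor conditions had 7552 to 8074. The part of this difference in the comparisons with ligand alone was not tested, and the comparisons of LY with PD do not use those conditions. Markers of mesenchyme (7 genes) summed to between 2118 and 3083 FPKM, and markers of epithelium, endothelium, blood and glia to at most 9.14 FPKM a list. Some of these low values moved with LY. The endothelium list had 2 genes above 1 FPKM (Kdr and Tek), with median log2 ratios of LY to PD of -0.88 and -0.99 at 1 hr and -1.35 and -1.81 at 4 hr, and Kdr was at 4.39 and 3.64 FPKM with PD and at 0.880 and 0.799 FPKM with LY at 4 hr, while Pecam1 and Cdh5 reached at most 0.105 and 0.0468 FPKM. Krt18, the only epithelium gene above 1 FPKM, stood at -1.76 and -1.22 with LY against ligand alone. With PD against ligand alone Krt18 was lower too, at -0.86 with each ligand. Its ratios of LY to PD were -0.25 and -0.15 at 1 hr and -0.91 and -0.36 at 4 hr. The part of these genes in the results was not tested. Of 7 fat cell markers 5 were below 1 FPKM throughout, 2 of them (Cidec and Lep) at 0 in every condition, and the list summed to between 1.36 and 3.74 FPKM. Pparg, a factor of fat cell formation, was at 1.73 and 2.08 FPKM with PD and at 0.581 and 0.627 FPKM with LY at 4 hr, and its part in the results was not tested. All 5 ERK targets listed were lower with PD than with PDGF or FGF alone, beside 9.57% and 11.6% of all entries. Dusp6, one of them, was at 10.9 and 51.8 FPKM with PDGF and FGF alone and at 0.996 and 2.16 FPKM with PD. Of 5 genes held down by PI3K signaling, 3 were higher with LY than with PD at 4 hr with PDGF, beside 6.97% of all entries. With FGF 2 were higher and 1 lower, beside 11.6% and 12.6%. Against the ligand alone 3 of 5 were higher with LY with PDGF and 1 of 4 with FGF, beside 9.84% and 11.4%. Irs2, an insulin receptor substrate, was at 10.7 and 9.86 FPKM with PD and at 21.2 and 19.5 FPKM with LY. None of the 7 reference genes measured reached 1.5-fold in any of the 8 inhibitor comparisons. Of all entries 8.86% to 14.5% were lower and 6.21% to 11.9% higher in these, and with 7 genes a count of 0 is near those shares. The reference genes had median log2 ratios of -0.37 with LY and -0.26 with PD against PDGF alone. With FGF against PDGF alone 1 of the 7 was lower, beside 6.58% of all entries.

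Related lists were counted in the same way. Of 14 further SREBP-responsive genes, 10 were lower and 0 higher with LY than with PD at 4 hr with PDGF, and 12 lower and 0 higher with FGF, with medians of -1.01 and -0.97, beside 12.8% and 12.6% of all entries lower. Rdh11, a retinol dehydrogenase of this list, had log2 ratios of -1.10 and -1.27. Of 6 genes measured of the machinery that cuts and degrades SREBP or INSIG, 0 were lower and 0 higher in each of the inhibitor comparisons. Between 8.86% and 14.5% of all entries were lower in those comparisons, and with 6 genes a count of 0 is near that share. Mbtps1, the first protease of SREBP, was at 72.4 and 78.8 FPKM with PD and at 93.1 and 99.5 FPKM with LY at 4 hr. In the isoprenoid branch, which leaves the sterol route at farnesyl diphosphate, 1 of 8 genes was lower with LY than with PD at 4 hr with each ligand, with medians of 0.04 and -0.05. This count of the branch genes is near the percent of all entries given above. Against PDGF alone 2 of 8 were lower with LY, beside 14.5% of all entries, and against FGF alone 1 of 8, beside 12.7%.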

How the data were processed

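RNA-seq of MEPMs was analysed from the deposited FPKM table, in which the authors pooled the replicates of each condition. Per the submitters' notes, CASAVA, TopHat and Cuffdiff were used with mm10; their versions are not given in the sources used here. The depth of each sample is unknown from these values, so no interval was calculated. Another 3 value columns, of conditions outside these samples, were not used. The RefSeq accessions of its entries were matched to symbols and coordinates through the RefSeq GRCm38.p6 gene table, and 22749 of 23286 entries matched 1 symbol each. Ratios were computed in Python 3.11.15 with pandas 2.3.3 and NumPy 2.4.6 (figures in matplotlib 3.10.9), without pseudocount or rescaling, with a size rule of 1.5-fold and a minimum of 1 FPKM in either condition, in 17 comparisons. The scripts were tested on simulated data. Chromosome medians and ranks used entries at or above 5 FPKM.

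The genes and lists were chosen with earlier results of these data known. Genes given in full were up to 3 of each role group with the largest absolute mean log2 ratio of LY to PD at 4 hr and at least 5 FPKM in the highest condition, with Insig1 and Srebf1, and from the other lists up to 4 by the same measure. Some genes that this rule names are not reported here. Rdh11, Pparg and other examples outside the rule were chosen after their values were seen. Shared 31-base words and exon overlaps were counted in GENCODE vM21. The strand setting of the library is not given in the sources used here, so reads of a gene and its antisense partner cannot be told apart.

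Alternatives were another FPKM minimum, a pseudocount, milder and stricter size rules, the other inhibitor as reference, and, chosen after seeing the data, the inclusion of shared entries and the removal of 5 genes on distal chromosome 9 and chromosome X.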

Additional observations from a re-analysis of the deposited data

How the results depend on the processing

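The table holds no values per replicate, so leaving out single replicates could not be run. No paired analysis was possible because each condition has 1 pooled value. Under the alternatives 303 counts stayed within 1.5 times the value given and 37 did not, and 134 medians stayed within 0.1 and 6 did not, and all counts of genes lower with LY than with PD or ligand alone were among those that stayed. The cause of the differences was not tested.

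The milder size rule asks for a smaller ratio than the rule used above, so at least as many entries reach it. For the comparisons of this paragraph, the percent of all entries was not counted at the milder or stricter rule. The counts therefore show only how the numbers move with the rule, and cannot be set beside all entries. At the milder rule, genes lower with PD numbered 5 against PDGF alone and 6 against FGF alone. At that rule 1 gene was higher with LY than with PD with FGF at 4 hr and with PDGF at 1 hr. Between ligands 8 were lower and 1 higher with FGF alone, 1 lower and 6 higher with PD at 4 hr, 2 lower and 7 higher with LY at 4 hr, 6 higher with PD at 1 hr and 4 higher with LY at 1 hr. From 1 to 4 hr 23 were lower with PDGF and LY and 20 with FGF and LY, 3 lower and 1 higher with PDGF and PD, and 8 lower and 1 higher with FGF and PD. At the stricter rule of 2-fold the counts were 0 for genes lower with PD than with PDGF alone, higher with PD than with FGF alone, lower with FGF than with PDGF alone, higher with FGF under PD at 4 hr, lower or higher under LY at 4 hr, higher under PD or LY at 1 hr, and lower at 4 than at 1 hr with PD and either ligand, and from 1 to 4 hr with LY 2 were lower with PDGF and 7 with FGF.

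With no FPKM minimum 1 gene was higher with LY than with PD with PDGF at 1 hr, and 1 was higher at 4 than at 1 hr with PDGF and PD. Both times this was Thrsp, which was hardly detected. With PDGF it was at 0.0627 FPKM with PD and 0.120 FPKM with LY at 1 hr, and at 0.0989 FPKM with PD at 4 hr. With a pseudocount of 1 the median of LY against PDGF alone was -1.59, and 0 genes were higher with FGF under PD at 4 hr or lower under LY at 4 hr. With the other inhibitor as reference the median was -1.54 for LY with PDGF, 1.54 for PD with PDGF and 1.52 for PD with FGF. These 3 values repeat the comparisons of LY with PD at 4 hr, with the sign turned for PD. They are counted among the medians that did not stay, but add no separate result. Chosen after seeing the data, the inclusion of the 2 shared entries gave a median of -1.61 for LY against PDGF alone. Without the 5 genes on distal chromosome 9 and chromosome X, also chosen after seeing the data, the median of LY against FGF alone was -1.61, with 0 genes higher with LY, 0 higher with PD and 0 lower with FGF than with PDGF alone.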

Other observations

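Other lipid genes had mixed ratios of LY to PD at 4 hr. Among all entries 12.8% were lower and 6.97% higher with PDGF, and 12.6% were lower and 11.6% higher with FGF. Of 12 genes of fatty acid oxidation, 0 were lower and 1 higher with each ligand, beside 6.97% and 11.6% of all entries higher, with median log2 ratios of 0.25 with PDGF and 0.10 with FGF. That gene, Cpt1a, which admits fatty acids to mitochondria, was at 19.0 and 18.1 FPKM with PD and at 30.5 and 28.2 FPKM with LY. Among 6 genes of LXR and sterol efflux, Mylip, whose product leads lipoprotein receptors to degradation, had log2 ratios of 1.11 and 1.98. Scarb1, a receptor of high density lipoprotein, stood at -0.95 and -0.91, and Lpcat3, a phospholipid remodeling enzyme, at -0.63 and -0.79. In the synthesis of triglycerides and phospholipids, 1 of 10 genes was lower and 0 higher with PDGF, and 3 of 11 were lower and 0 higher with FGF, with medians of -0.13 and -0.17. Mfsd2a, a carrier of lysophospholipids, was at 0.896 and 4.42 FPKM with PD and at 0.351 and 0.693 FPKM with LY. Pcyt2, an enzyme of phosphatidylethanolamine synthesis, was at 65.2 and 65.7 FPKM with PD and at 23.3 and 19.3 FPKM with LY. Of 7 genes of cholesterol transport and storage, 0 were lower with either ligand, and Stard3, a sterol carrier of late endosomes, was higher with FGF at 0.61 and stood at 0.57 with PDGF. With 7 genes, counts of 0 lower and 1 higher are near the percents of all entries given above. The medians of this list were 0.15 and 0.11.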
